A study of Rattus norvegicus with 12 samples.

Results

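Transcript signals in renal cortex of nondiabetic male rats were compared between 10 and 20 weeks of age, an interval over which the rat passes from puberty into adulthood. The comparison uses 6 of the 12 arrays of the series, chosen by the age and treatment in their labels: 3 from 10-week nondiabetic rats and 3 from 20-week nondiabetic rats. The study set out to compare diabetes begun before and after puberty, and these rats were its controls. Each received an injection of vehicle, at 4 weeks of age in the younger group and at 14 weeks in the older one, and a pellet of palmitate vehicle 3 days later. All had free access to food and water, and cortex was taken 6 weeks after the injection. The other 6 arrays come from diabetic littermates of the same ages, given streptozocin at 65 mg/kg intravenously and insulin palmitate pellets, although the label of 10-week diabetic replicate 1 names a vehicle pellet. They serve here to be set beside the nondiabetic comparison. In them age goes with the age at which diabetes began, and the design cannot separate these. Both ages of a treatment were injected and implanted alike, so the age difference can include the age at which the injection and pellet were given. Which rat gave which array is not in the labels, so p-values reflect only how these samples vary, part of which may be technical. The strain is not given in the sources used here.

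By background knowledge, the nephrons of a rat kidney are all formed soon after birth, and the organ then grows mainly by lengthening and widening of its tubules. Growth hormone, insulin-like growth factors and, in males, androgens accompany this growth, and cell division in the cortex becomes rare in the adult. Each nephron segment keeps its own transporters: the convoluted and straight proximal tubule recover most of the filtrate, the thick ascending limb dilutes it, and the distal convoluted and connecting tubule adjust calcium, magnesium and sodium. In whole tissue, fewer cells of a type and less RNA per cell cannot be told apart.

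The samples had the markers of cortex at both ages. The proximal tubule phosphate transporter Slc34a1 gave signals of 26564 to 28159 at 10 weeks and 22559 to 30062 at 20 weeks, and the endocytic receptor Lrp2 gave 20863 to 25832 over all 6 arrays. The podocyte gene Nphs1 was lower, at 452 to 634, in arrays of both ages. Of 14 urothelial markers only Krt7, a keratin, passed the limit for dim probe sets, at 4643 to 5100 at 10 weeks and 4153 to 4663 at 20 weeks. Correlations between arrays of the series ran from 0.941 to 0.976. For Gapdh, the 3' over 5' signal, a measure of RNA degradation, was 1.41 to 1.46 at 10 weeks. At 20 weeks it was 2.09 in replicate 1, 1.42 in replicate 2 and 1.54 in replicate 3. The mean difference between the ages was 0.21 on the log2 scale (two-sided exact permutation p = 0.3, where the smallest p that 3 against 3 arrays allow is 0.1). The same ratio for actin was larger, at 6.75, 7.47 and 6.85 at 10 weeks and 11.19, 6.87 and 8.27 at 20 weeks. Its mean log2 difference was 0.29 (two-sided exact permutation p = 0.2).

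No transcript passed the test between 10 and 20 weeks in nondiabetic rats. Of 18625 probe sets tested with limma over all 12 arrays, 0 (0.0%) had a Benjamini-Hochberg adjusted p under 0.05, and the smallest was 0.0739. At an unadjusted p under 0.05 there were 1603 probe sets (8.61%), with 815 higher and 788 lower at 20 weeks. When limma was fitted to the nondiabetic groups alone, 1155 had an unadjusted p under 0.05 and 0 passed. All 3 arrays of 20 weeks lay above all 3 of 10 weeks for 1185 probe sets and below them for 1062, and differences over 2-fold were among these for 48 and 47. The median standard error (SE) of a difference was 0.184 on the log2 scale. For 15246 probe sets (81.9%) the 95% confidence interval of the difference stayed within 2-fold in either direction. A count of 0 is therefore no statement that every gene held its level, since for the remaining probe sets the interval reaches 2-fold or beyond.

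The gene with the smallest p was Havcr1, a surface receptor of proximal tubule cells known as a marker of tubular injury. Its signal was 63.6, 49.6 and 85.1 on the arrays of 10 weeks and 901, 457 and 466.5 on those of 20 weeks. The groups were far apart, by 3.16 ± 0.41 on the log2 scale (SE; 95% confidence interval 2.27 to 4.05), and the adjusted p was 0.0739. The 10-week values lie near 70.9, the limit below which probe sets were left out as dim, so the size of this difference is uncertain. Spp1, osteopontin, a secreted phosphoprotein of distal and injured tubules, gave 2545, 2625 and 2314 at 10 weeks and 8209, 5089 and 6315 at 20 weeks. It was higher on every array of 20 weeks, by 1.36 ± 0.26 (2.57-fold, adjusted p = 0.235).

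Abhd3 and Mgll, enzymes of lipid breakdown, were also among the higher genes, while Tmem86a, which breaks down ether lysophospholipids, was among the lower ones. Abhd3, a phospholipase, gave 1084, 815 and 1333 at 10 weeks and 2135, 1820 and 2328 at 20 weeks (log2 difference 0.98 ± 0.18, adjusted p = 0.233). A dim second probe set of Abhd3 gave -0.034 ± 0.36. Mgll, which splits monoacylglycerols, gave 5100, 4142 and 4462 against 8148, 7176 and 6060 (0.64 ± 0.12, adjusted p = 0.233). Its probe sets disagree: the others gave 0.59 ± 0.19 and -0.28 ± 0.44. Tnfrsf21, a death receptor of the tumour necrosis factor family, gave 1398, 1563 and 1634 against 2160, 2419 and 2518 (0.63 ± 0.089, adjusted p = 0.098). A second probe set of it gave 0.57 ± 0.092 (adjusted p = 0.131).

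The other genes among the 15 with the smallest p in the higher direction had smaller differences, from 0.28 to 0.75. They include Grem1, a secreted antagonist of bone morphogenetic proteins, at 817, 581.5 and 730 on the 10-week arrays and 1229, 1333 and 887 on the 20-week arrays. Hoxb4, a homeobox factor, gave 299, 359 and 362 against 539, 524 and 475. Pcbd2, a dehydratase of the tetrahydrobiopterin cycle, differed by 0.63 ± 0.13, and another probe set of it gave 0.13 ± 0.094. Chordc1, a partner of the chaperone Hsp90, differed by 0.53 ± 0.11. Genes of membrane traffic in this group were Gga3, a clathrin adaptor at the Golgi (0.75 ± 0.17), Rab11a, a GTPase of recycling endosomes (0.44 ± 0.10), and Chmp7, an ESCRT-III subunit (0.37 ± 0.087). Epb41, a protein of the membrane skeleton, Rhbdd2, a rhomboid-domain protein, and Eef1b2, a translation elongation factor, gave 0.47 ± 0.11, 0.58 ± 0.13 and 0.28 ± 0.065. A second probe set of Gga3 gave 0.079 ± 0.27 and one of Rab11a 0.14 ± 0.069, both smaller than the values named.

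Among the lower genes the smallest p was that of Tmem86a, a lysoplasmalogenase, which breaks down ether lysophospholipids. Its signal was 1753, 1738 and 1233 at 10 weeks and 672, 725 and 922 at 20 weeks. The arrays of the ages did not overlap, and the difference was -1.02 ± 0.16 (2.03-fold lower, adjusted p = 0.131). A second probe set of the gene gave -0.93 ± 0.25. Cyp51, the lanosterol demethylase of cholesterol synthesis, gave 1195, 1344 and 1130 against 886, 586 and 713 (-0.76 ± 0.13, adjusted p = 0.19), and a dimmer probe set of it gave -0.32 ± 0.26. Endog, a mitochondrial endonuclease, gave 378, 281 and 270.1 against 154, 158 and 99.4 (-1.19 ± 0.23, adjusted p = 0.233).

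Calb1 and Slc8a1, which carry calcium through and out of cells of the late distal nephron, were both lower on every 20-week array. Calb1, the cytosolic calcium buffer calbindin, gave 17498, 13037 and 11500 at 10 weeks and 7484, 7704 and 8783 at 20 weeks (-0.79 ± 0.15, 1.73-fold lower, adjusted p = 0.233). Slc8a1, the sodium-calcium exchanger of the basolateral membrane, gave 3667, 2707 and 2865 against 1821, 2001 and 1966 (-0.66 ± 0.15, 1.58-fold lower, adjusted p = 0.348). The highest value of each was that of 10-week replicate 1. Slc31a1, the copper importer, had a small difference with little spread on its brightest probe set: 4062, 3888 and 3976 against 3263, 3281 and 2960 (-0.33 ± 0.067, adjusted p = 0.3). Its other probe sets gave -0.35 ± 0.093, -0.41 ± 0.22 and -1.10 ± 0.42, of which only the first had arrays apart. Kcne4, a potassium channel subunit, gave 249, 227 and 221 against 93.9, 129 and 143.5 (-0.95 ± 0.20).

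Genes of matrix, signalling and cell division completed the lower set. Dpt, the matrix protein dermatopontin, gave 1010, 789.5 and 803 against 652, 519 and 440.1 (-0.70 ± 0.14), and its brighter probe set gave -0.60 ± 0.14. Smad7, an intracellular inhibitor of transforming growth factor beta, gave 539, 412 and 389.7 against 216, 259 and 275 (-0.83 ± 0.18), while a dim second probe set gave 0.014 ± 0.51. Ank3, ankyrin G, which anchors membrane proteins, gave -0.80 ± 0.18, and its brighter probe set -0.28 ± 0.17. Yes1, a Src-family kinase, gave -0.54 ± 0.12, Ifit2, an interferon-induced protein, -0.97 ± 0.21 (a second probe set -0.47), and Arhgap11a, a gene of dividing cells, -1.27 ± 0.28. All 30 of these named genes had arrays that did not overlap between the ages, which is part of the rule that chose them, and their adjusted p-values ran from 0.0739 to 0.364.

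**Figure D1:**
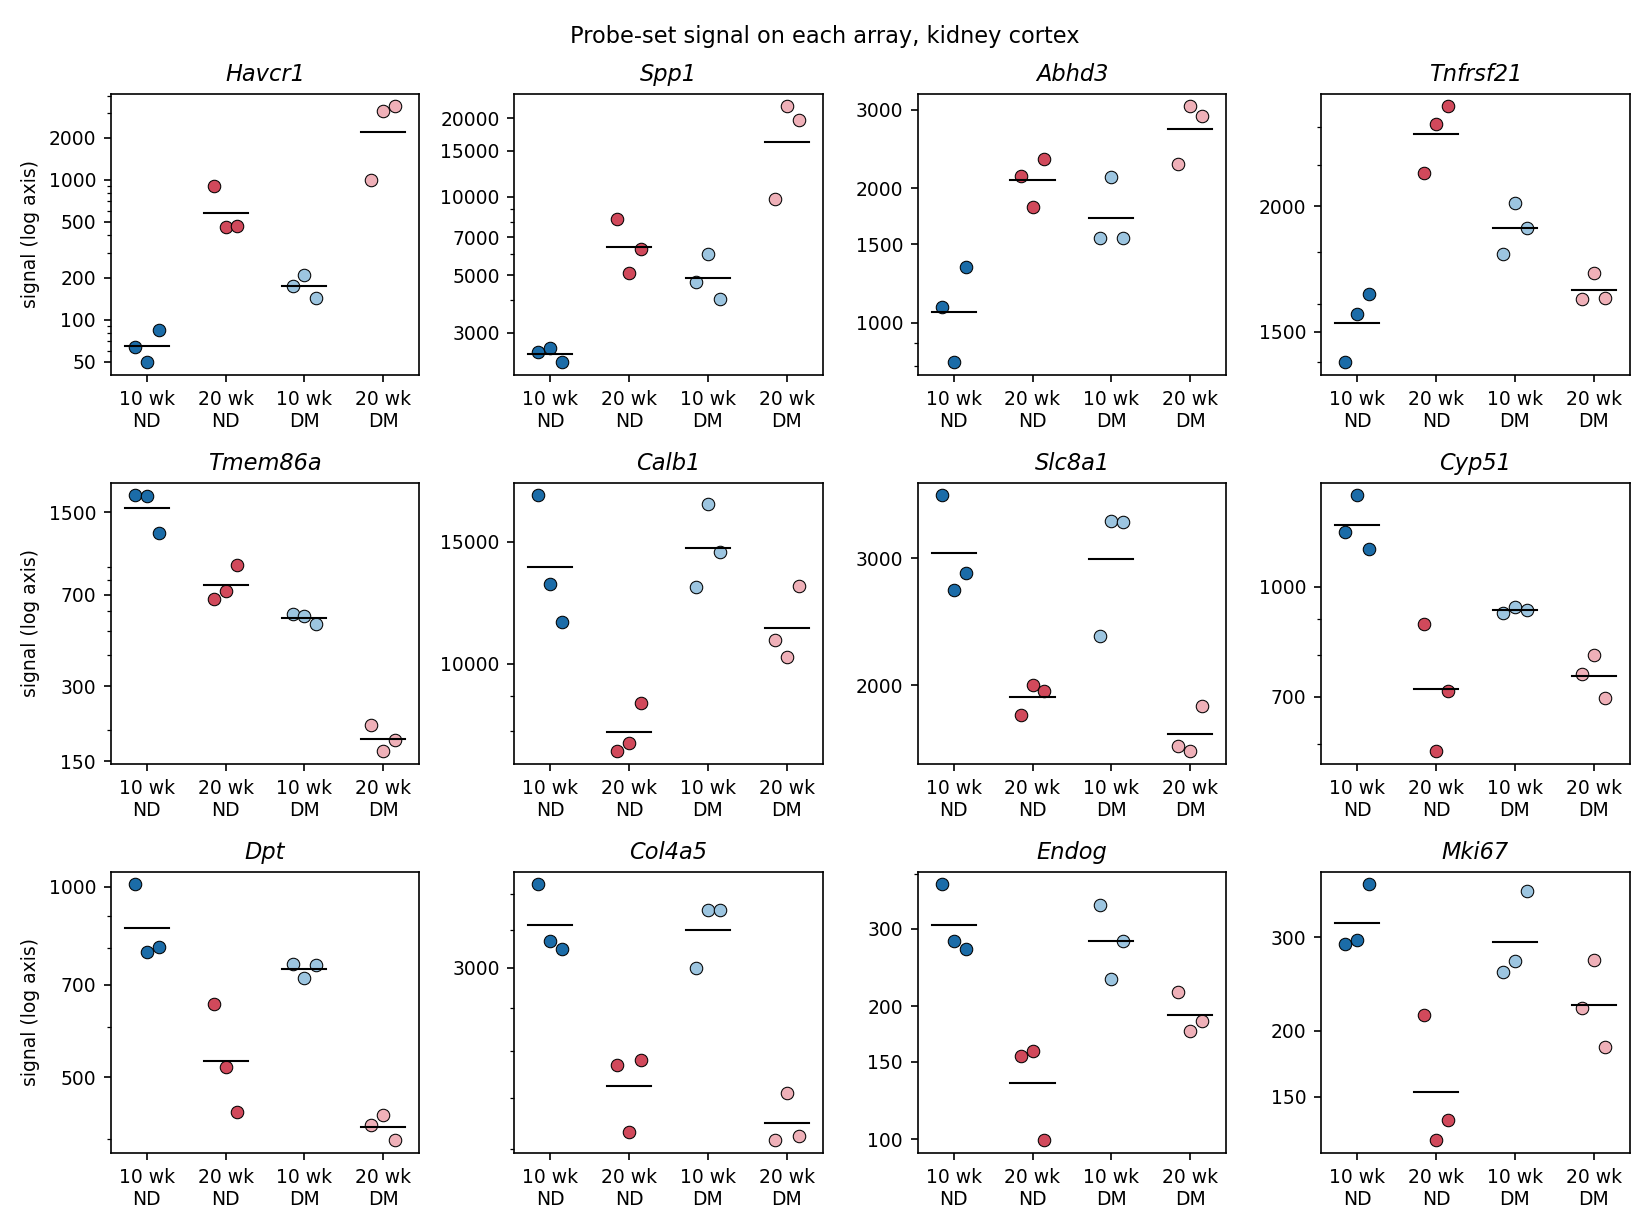
Signal of 12 of the named genes on each of the 12 arrays (log axes, which differ between panels); points are arrays, bars are geometric means of 3 arrays, ND is nondiabetic and DM diabetic. In each panel the arrays of the 10-week and 20-week nondiabetic groups do not overlap, and Havcr1, Spp1, Tmem86a, Slc8a1, Dpt and Col4a5 have the same direction, past the test, in the diabetic groups.

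Growth was examined first through genes of the cell cycle. Of 58 listed genes 46 passed the limit for dim signals, and 0 passed the test in either direction. The median difference was -0.22, against 0.021 over all 10581 genes measured by 1 probe set each, the brightest. All 20-week arrays lay below all 10-week arrays for 10 of the 46 members (21.7%), against 5.67% of all genes, and above them for 1 (2.17%), against 7.15%. The members with the smallest p act in mitosis and vary with the same dividing cells, so they are not independent of each other.

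Mki67, the proliferation marker Ki-67, gave 291, 296 and 378 at 10 weeks and 214, 124 and 135 at 20 weeks (-1.06 ± 0.24, adjusted p = 0.348). Kif20a, a mitotic kinesin, gave 190.0, 212 and 191 against 101, 36.2 and 85.5 (-1.54 ± 0.39). Cdk1, the kinase that starts mitosis, gave 228, 360.4 and 282 against 147, 125 and 139 (-1.06 ± 0.36). Ect2, an exchange factor of cytokinesis, differed by -0.86 ± 0.26, Prc1, which bundles the spindle midzone, by -1.09 ± 0.37, and the B-type cyclin Ccnb2 by -0.67 ± 0.21. Hmmr, Nusap1 and Ccnb1 were also apart, at -0.90, -0.76 and -0.66, as was the mitotic kinase Aurkb. The replication clamp Pcna gave 2397 to 2792 at 10 weeks and 2284 to 2780 at 20 weeks (-0.089 ± 0.092). Most of the mitotic signals are low, and the list's median was -0.048 when the 60% dimmest probe sets were left out.

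The promoters of 3 of these genes are shown for the short elements known from promoters of genes of G2 and mitosis, which some list members hold. They are those of the members with the smallest p that have a single promoter entry, with 1 chromosome left out. Each is the 150 bases before the RefSeq start site (assembly GRCr8, printed 5′ to 3′ on the gene's strand), and capitals mark matches on either strand to CCAAT, the CCAAT box, or to TTTGAA or TTCGAA, the cell cycle homology region.
Mki67 (chr1:199952594-199952743, minus strand): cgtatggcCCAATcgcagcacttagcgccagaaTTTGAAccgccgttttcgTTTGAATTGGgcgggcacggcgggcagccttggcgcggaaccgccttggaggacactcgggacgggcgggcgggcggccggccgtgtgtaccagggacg
Ect2 (chr2:111966627-111966776, minus strand): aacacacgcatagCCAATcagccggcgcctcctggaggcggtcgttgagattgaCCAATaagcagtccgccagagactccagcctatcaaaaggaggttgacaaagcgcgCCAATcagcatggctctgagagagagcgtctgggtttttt
Ccnb2 (chr8:79981659-79981808, minus strand): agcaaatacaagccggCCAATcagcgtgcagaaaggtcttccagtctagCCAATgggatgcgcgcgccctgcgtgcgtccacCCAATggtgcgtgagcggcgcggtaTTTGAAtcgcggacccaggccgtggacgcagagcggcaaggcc
The CCAAT box was found in 24 of the 37 list members with a promoter entry (64.9%) and in 23.5% of 33469 RefSeq promoters of this length. The cell cycle homology region was found in 9 of the 37 (24.3%) and in 9.74% of all. In Mki67 1 match of each motif overlaps the other. A match is a description of the letters and not a measured site.

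The growth hormone and insulin-like growth factor axis had 30 of 41 members measured, 0 called and a median of -0.041. Igfbp3, the main carrier of circulating insulin-like growth factors, gave 4983, 3706 and 4174 at 10 weeks and 3464, 3326 and 2927 at 20 weeks (-0.40 ± 0.13, adjusted p = 0.495). Igf1 itself was too variable to place, with 823, 501 and 806 against 267, 675 and 326 (-0.83 ± 0.95). The growth hormone receptor Ghr differed by -0.18 ± 0.12 and the receptor Igf1r by 0.056 ± 0.16. Pdgfa, a platelet-derived growth factor chain, gave 301, 272 and 305 at 10 weeks and 388, 386 and 354 at 20 weeks, without overlap. Regulators of nephron development (29 of 52 measured) had a median of -0.010. In each direction 1 gene was apart (3.45%, against 7.15% of all genes higher and 5.67% lower). They were Hes1, a Notch target, at 0.34 ± 0.14, and the fibroblast growth factor Fgf9 at -0.22 ± 0.12.

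Matrix genes leaned to lower signals at 20 weeks. Of 58 listed, 48 were measured, 0 were called, the median was -0.13, and the arrays were apart for 12 lower (25.0%, against 5.67% of all genes) and 2 higher (4.17%, against 7.15%). Col4a5, a basement membrane collagen chain, gave 3459, 3137 and 3097 at 10 weeks and 2538, 2265 and 2563 at 20 weeks (-0.40 ± 0.081, adjusted p = 0.3). The fibrillar collagen chain Col1a2 gave 970.3, 933 and 1007 against 691, 603 and 439 (-0.77 ± 0.24), and Col3a1 gave 2726, 2409 and 2375 against 2053, 1374 and 1195 (-0.74 ± 0.23). Fbln5, an elastic fibre protein, and Nid2, a basement membrane linker, differed by -0.51 ± 0.12 and -0.31 ± 0.084. Lox, which crosslinks collagen, was 1 of the 2 with higher arrays, at 0.50, while the related Loxl2 was at -1.13. The matrix list as a whole overlapped between the ages. Relative to the mean of the 6 arrays it stood at 0.11 in 20-week replicate 1, above 0.034 and 0.029 in 10-week replicates 2 and 3. Its median was -0.092 without 10-week replicate 1 and -0.09 without 20-week replicate 3.

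Fibroblast markers leaned the same way as the matrix genes. Of 20 listed, 14 were measured, 4 of them (28.6%, against 5.67% of all genes) had lower arrays and 0 had higher ones, and the median was -0.20. Of the 4, Dpt is joined by Col1a1, Col1a2 and Col3a1, which stand in both lists. Dcn, the proteoglycan decorin of the same cells, had the opposite sign, with 2133, 1206 and 1088 against 2290.4, 2099 and 2177 (0.63 ± 0.34). The list's summed signal was 15896 to 18729 on 10-week arrays and 13507 to 17262 on 20-week arrays, so the ages overlapped, and the part of fibroblast number in the collagen differences was not tested. The list's median was -0.079 without 10-week replicate 1 and -0.11 without 20-week replicate 3.

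Genes of transforming growth factor beta and bone morphogenetic protein signalling (50 of 60 measured) had a median of 0.031, with 4 apart higher (8.0%) and 3 lower (6.0%), shares close to the 7.15% and 5.67% of all genes. The lower members were the inhibitory Smads Smad7, at -0.83, and Smad6, at -0.58, and the binding protein Fstl1, at 1746, 1631 and 1630.0 against 1541, 1172 and 1010 (-0.45 ± 0.13). Grem1, the receptor Acvr2b (0.54 ± 0.23), Runx1 (0.62) and Smad5 (0.17) were higher. Each of these has an adjusted p over 0.05.

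**Figure D2:**
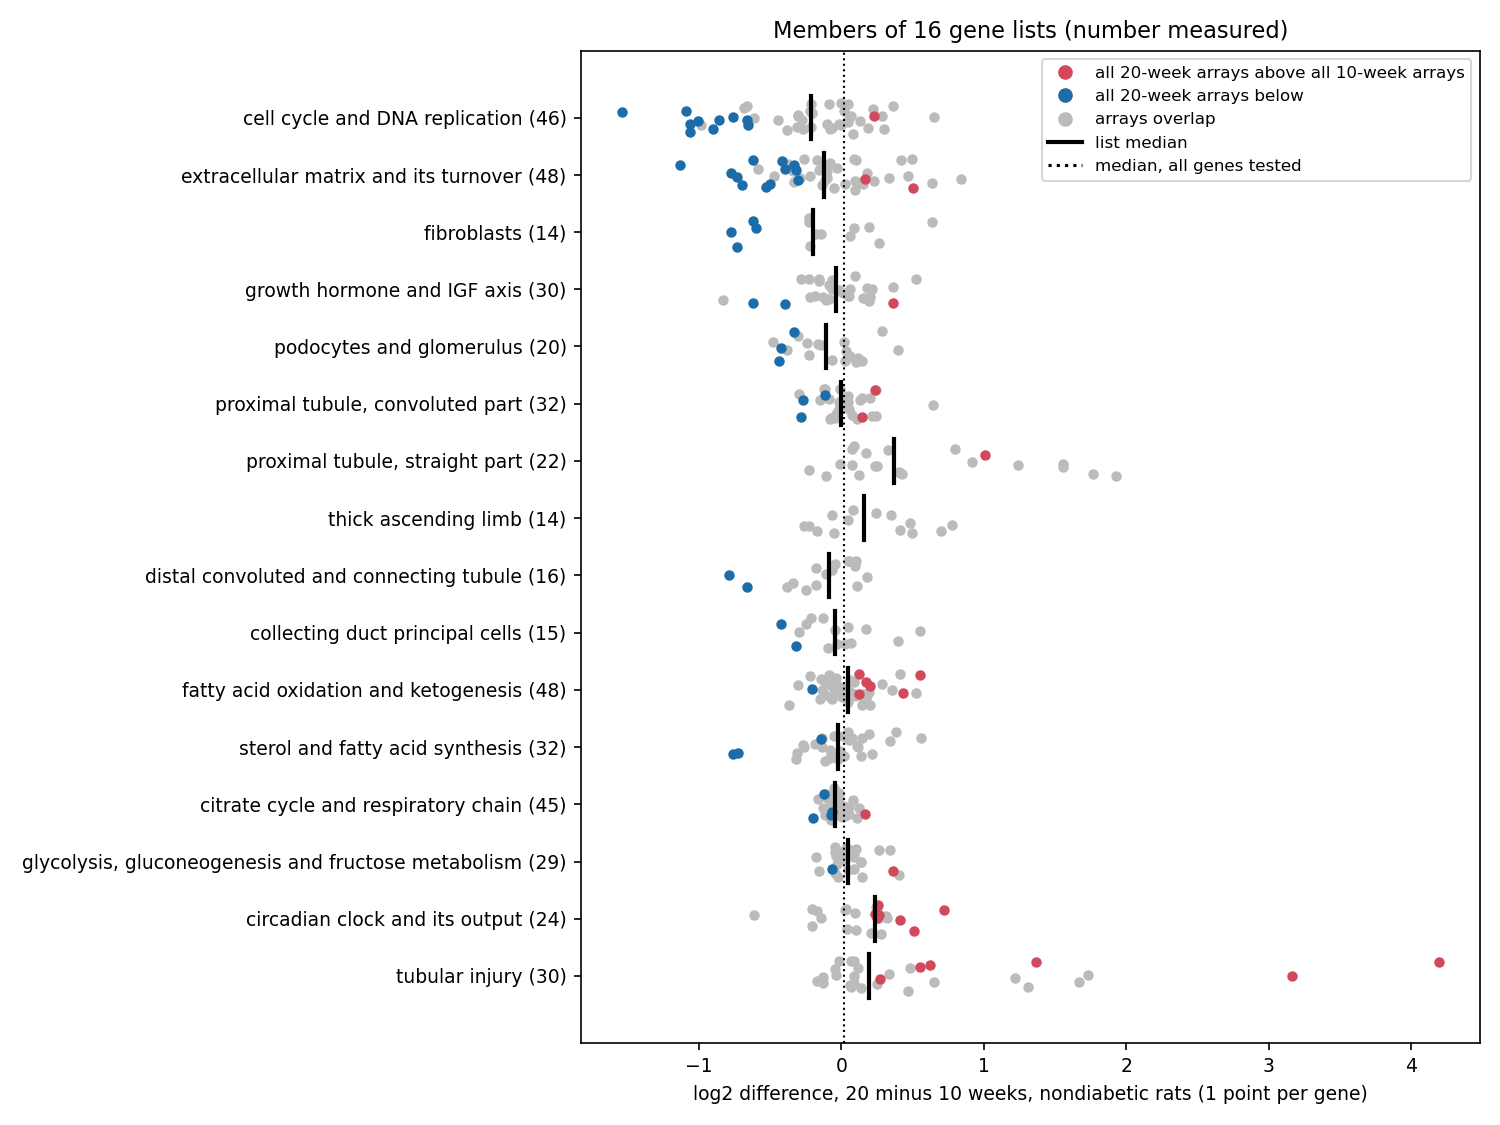
Log2 difference, 20 minus 10 weeks, of each measured member of 16 gene lists in nondiabetic rats; each point is 1 gene, its colour shows whether the arrays of the ages were apart, and bars are list medians. The list medians run from -0.22 for the cell cycle to 0.37 for the straight proximal tubule, and the dotted line marks the median of all genes, 0.021.

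Along the nephron, most segment markers had medians close to that of all genes. Convoluted proximal tubule genes (32 of 34 measured) had a median of -0.001. Their arrays were apart for 2 higher (6.25%, against 7.15% of all genes) and 3 lower (9.38%, against 5.67%). Slc9a3, the sodium-hydrogen exchanger of the brush border, gave 2546, 2530.1 and 2367 at 10 weeks and 2864, 3049 and 2866 at 20 weeks (0.24 ± 0.098, adjusted p = 0.56). Slc34a3, a sodium-phosphate cotransporter, and Amn, a partner of cubilin in protein uptake, went the other way, at -0.29 ± 0.11 and -0.27 ± 0.12. The glucose transporter Slc5a2 overlapped between the ages, with 4305 to 5071 and 2724 to 5204.

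Straight proximal tubule genes had the highest list median, 0.37, with 22 of 25 measured and 19 above 0. Their arrays were apart for only 1 member, higher (4.55%, against 7.15% of all genes), the glucose transporter Slc5a1. Its signals are dim: 38.9, 57.3 and 47.9 against 103, 76.9 and 109 (1.01 ± 0.28, adjusted p = 0.455). The median rests on 1 array. Relative to the mean of the 6 arrays the list lay at -0.79 in 10-week replicate 1, and at -0.067 and 0.28 in the other two of that age. At 20 weeks it lay at 0.019, 0.37 and 0.20. Without 10-week replicate 1 the median was 0.005.

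Thick ascending limb genes (14 of 17 measured) had a median of 0.16 and no member with arrays apart. Umod, uromodulin, gave 9289, 17212 and 20864 at 10 weeks and 18885, 21497 and 22473 at 20 weeks (0.48 ± 0.28). The cotransporter Slc12a1 gave 2844, 3392 and 5537 against 5410, 5425 and 5126 (0.50 ± 0.27). For both genes 10-week replicate 1 was the lowest of the 6 arrays, and 10-week replicate 3 overlapped the 20-week values.

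The distal convoluted and connecting tubule (16 of 19 measured) had a median of -0.086, with 2 members apart lower (12.5%, against 5.67% of all genes), Calb1 and Slc8a1. Other genes of these segments had differences nearer 0 or wider errors. The thiazide-sensitive cotransporter Slc12a3 gave 3834, 2533 and 2463 against 3386, 3142 and 2727 (0.093 ± 0.19), and the kallikrein Klk1 gave -0.047 ± 0.15. The vitamin D-dependent calcium binder S100g gave 266, 366 and 482 against 389, 471 and 374 (0.18 ± 0.25), and the calcium channel Trpv5, near background, gave -0.38 ± 0.29. In the collecting duct, principal cell genes (15 of 18 measured) had a median of -0.046 and intercalated cell genes (10 of 21 measured) one of -0.13. The water channel Aqp2 differed by -0.028 ± 0.13.

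Podocyte and glomerular genes (20 of 26 measured) had a median of -0.11. Of the 20, 3 were apart lower (5.67% of all genes) and none higher (7.15% of all genes). Ptpro, a tyrosine phosphatase of podocyte foot processes, gave 744, 820.1 and 854 at 10 weeks and 573, 648 and 581 at 20 weeks (-0.42 ± 0.14, adjusted p = 0.49). Clic3 and the collagen chain Col4a4 were the other two, at -0.44 and -0.33. Endothelial genes (20 measured) had a median of 0.013. Smooth muscle, mesangial and renin cell genes (19 measured) had 0.11, with the smooth muscle myosin Myh11 at 403, 297.5 and 372 against 629, 487 and 554 (0.64 ± 0.16, adjusted p = 0.40). Macrophage and granulocyte genes (21 measured) had a median of 0.076 and lymphocyte genes (8 measured) -0.092.

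Markers of tissue outside the cortex varied in how many could be measured. Inner medulla and papilla genes had 13 of 17 measured and a median of -0.044, fat genes 11 of 20 and 0.087, red cell genes 5 of 12 and 0.19, and adrenal cortex genes 3 of 12 and 0.090. The fat hormone Adipoq gave 158 to 203 at 10 weeks and 141 to 158 at 20 weeks. Of the 11 fat genes 7 were above 0 and 4 below. Arrays were apart for 2 higher (18.2%, against 7.15% of all genes) and 1 lower (9.09%, against 5.67%). The higher ones were Car3, at 59.8, 49.8 and 74.9 against 227, 104 and 121.5, and Cidea, at 67.1, 101.6 and 103 against 143, 133 and 131.5. Haemoglobin differed most in 10-week replicate 1, where Hbb gave 8822, against 14749 to 19145 on the other 5 arrays. The list of red cell genes lay at -0.77 there relative to the mean of the 6 arrays, and at 0.034 to 0.11 elsewhere.

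**Figure D3:**
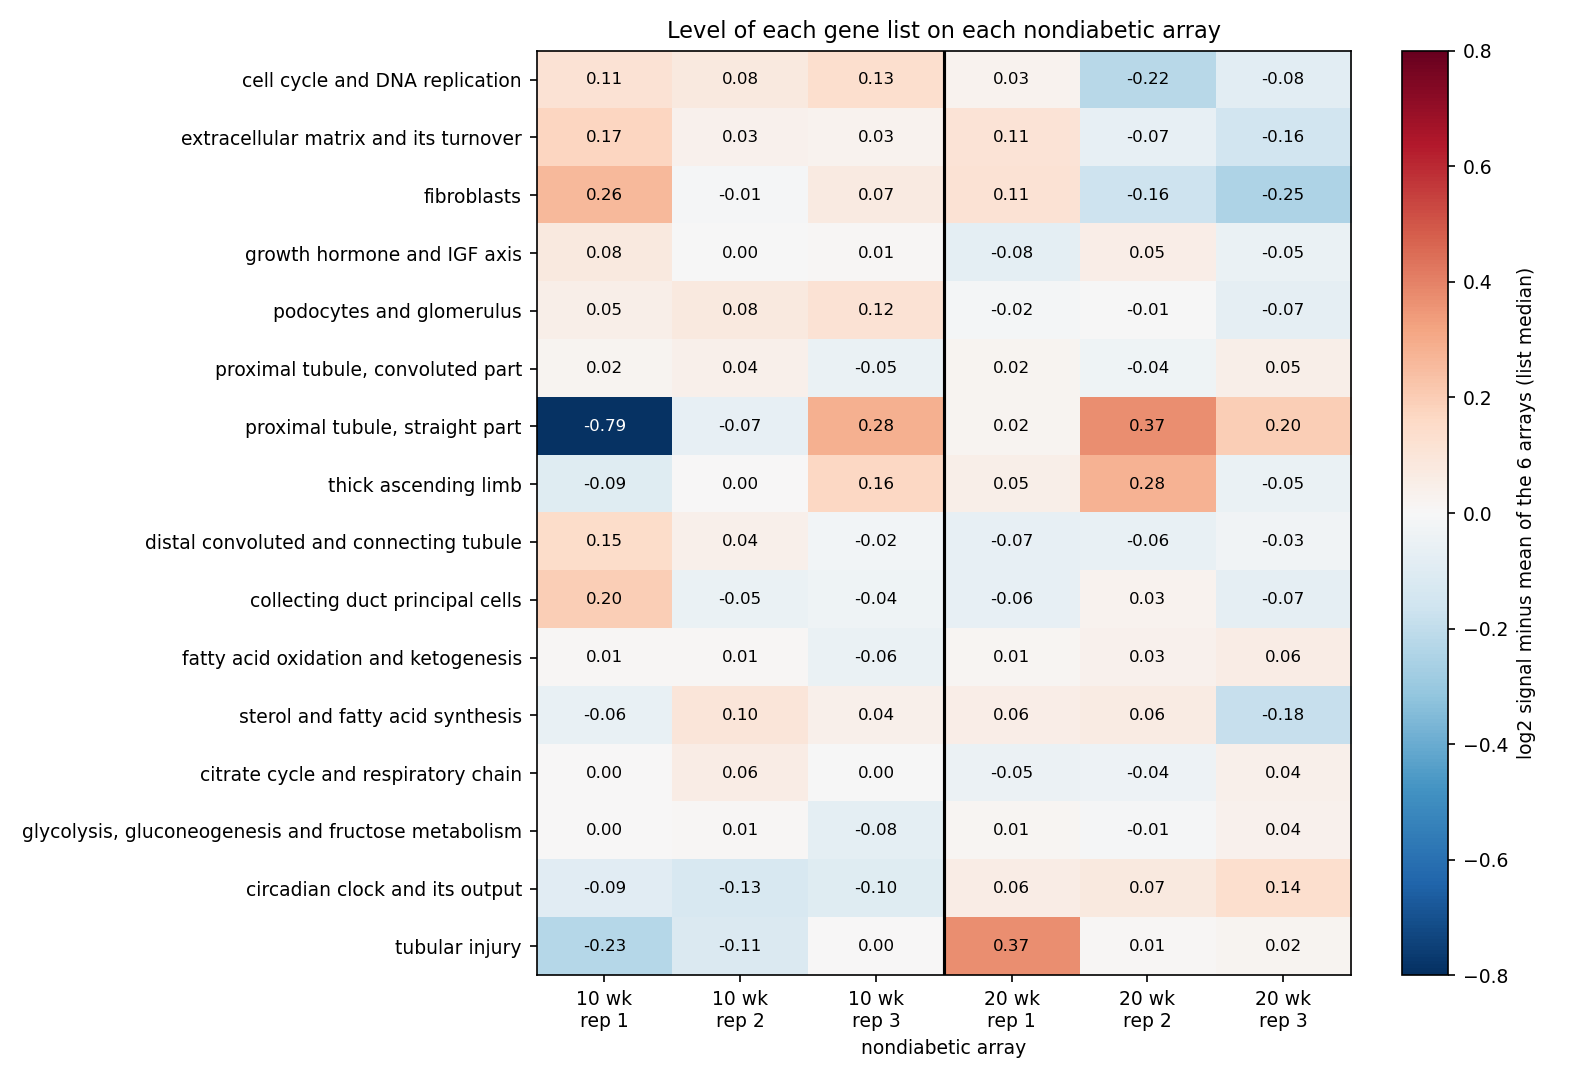
Level of 16 gene lists on each nondiabetic array, as the median over members of the log2 signal minus the mean of the 6 arrays. The straight proximal tubule list stands at -0.79 in 10-week replicate 1 and the tubular injury list at 0.37 in 20-week replicate 1, while the circadian list is below 0 on every 10-week array and above 0 on every 20-week array.

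Metabolic lists had medians close to that of all genes. Fatty acid oxidation (48 of 56 measured) had a median of 0.045 and 6 members apart higher (12.5%), 1 lower (2.08%) and 0 called, where all genes gave 7.15% and 5.67%. Acadl, the long-chain acyl-CoA dehydrogenase, gave 6668, 6041 and 6456 at 10 weeks and 7536, 7278 and 7222 at 20 weeks (0.20 ± 0.086, adjusted p = 0.56). Cpt1a, which brings fatty acids into mitochondria, was also apart, at 4748, 4695 and 4428 against 4849, 4878 and 5364 (0.12 ± 0.091). Ucp2, a mitochondrial carrier, differed by 0.55 ± 0.23 and Acad10, a dehydrogenase, by 0.43 ± 0.17. Ppargc1a, the coactivator of mitochondrial genes, was the lower one, at 2203, 2200.0 and 2035 against 1875, 1904 and 1804 (-0.21 ± 0.10).

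Sterol and fatty acid synthesis (32 of 40 measured) had a median of -0.023. No members were apart higher (7.15% of all genes) and 3 were apart lower (9.38%, against 5.67%). Beside Cyp51 they include Hsd17b7, another enzyme of cholesterol synthesis, at 257.5, 315 and 289 against 229, 200.1 and 112 (-0.73 ± 0.28). Msmo1, which acts after Cyp51, gave 1451, 1639 and 1649 against 1147, 1456 and 1233 (-0.31 ± 0.12), with an overlap of 1 array. Insig1, which holds back sterol synthesis, gave -0.27 ± 0.12. Srebf1, a regulator of lipid synthesis, gave 0.38 ± 0.20 and the NADPH-producing Me1 0.56 ± 0.35.

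Citrate cycle and respiratory chain genes (45 of 52 measured) had differences from -0.20 to 0.17, with a median of -0.045. Their arrays were apart for 1 higher (2.22%), Dlst of the oxoglutarate dehydrogenase complex, and 4 lower (8.89%), where all genes gave 7.15% and 5.67%. Glycolysis, gluconeogenesis and fructose metabolism (29 of 39 measured) had a median of 0.045. Pck1, which commits carbon to gluconeogenesis, gave 21007, 21993 and 17186 against 22534, 17747 and 26790.4 (0.14 ± 0.14). The largest difference with arrays apart in that list was Rpia, of the pentose phosphate pathway, at 0.36 ± 0.13.

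Amino acid, one-carbon and ammonia metabolism (51 of 63 measured) had a median of 0.036. Its arrays were apart for 2 higher (3.92%) and 4 lower (7.84%), where all genes gave 7.15% and 5.67%. Asl, which releases arginine from argininosuccinate, gave 5835, 6024 and 5360 at 10 weeks and 4831, 4355 and 4375 at 20 weeks (-0.34 ± 0.093, adjusted p = 0.455). Gpt, alanine aminotransferase, gave 112, 147 and 145 against 264, 214 and 200.2 (0.75 ± 0.21, adjusted p = 0.455). Antioxidant and xenobiotic genes (57 of 65 measured) had a median of 0.085. Here 4 were apart higher (7.02%) and 2 lower (3.51%), where all genes gave 7.15% and 5.67%. Gstm4, a glutathione transferase, gave 332, 315 and 408 against 503, 720.1 and 533 (0.72 ± 0.20), and Nqo1, a quinone reductase, 265.5, 249 and 246 against 379, 372 and 296 (0.45 ± 0.16). Cyba, a subunit of NADPH oxidase, was lower, at -0.30 ± 0.099.

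The circadian list leaned to higher signals at 20 weeks. Of 29 genes 24 were measured, 0 were called, the median was 0.24, and the arrays were apart for 7 higher (29.2%, against 7.15% of all genes) and none lower (5.67% of all genes). Hlf, a clock output factor, gave 1003, 973.5 and 1061 at 10 weeks and 1473, 1497 and 1359 at 20 weeks (0.51 ± 0.18, adjusted p = 0.516). Cry1, a clock repressor, gave 318, 240 and 387 against 459, 497 and 582.5 (0.72 ± 0.29). Csnk1d, a kinase of the Per proteins, gave 0.25 ± 0.081. The core activator Bmal1 gave 0.036 ± 0.22 and the output factor Dbp -0.17 ± 0.25, both with overlap. Clock transcripts vary over the day, and the part of the hour of sampling, which the labels do not give, was not tested. The median was 0.12 without 20-week replicate 3.

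The tubular injury list had 30 of 36 members measured, a median of 0.19 and 6 apart higher (20.0%, against 7.15% of all genes) with none lower (5.67% of all genes). Besides Havcr1 and Spp1 these were Hmox1, Cd44, S100a11 and Lcn2. Lcn2, the iron-siderophore binder lipocalin 2, gave 103, 110 and 126.5 at 10 weeks and 204, 144 and 154 at 20 weeks (0.55 ± 0.35). Clu, a chaperone of injured tubules, gave 1292, 908 and 770.3 against 3460, 1289 and 3104 (1.31 ± 0.42), and the second 20-week array overlapped the first of 10 weeks. The list stood highest in 20-week replicate 1, the array with the highest Gapdh ratio, at 0.37 against 0.007 and 0.022 on the others of that age. Its median was 0.022 without that array and -0.011 with the Gapdh ratio as a covariate. Havcr1 gave 2.67 to 3.36 and Spp1 1.04 to 1.53 over all alternatives.

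The remaining lists had medians from -0.14 to 0.19. Inflammation and complement (36 measured) had 0.098, with Icam1, an adhesion molecule, at 442, 405 and 398 against 595, 516 and 529 (0.40 ± 0.12, adjusted p = 0.482). Interferon and antigen presentation genes (35 measured) had -0.14, with 4 apart lower (11.4%, against 5.67% of all genes), and the median was -0.31 without 20-week replicate 1 and -0.017 without 20-week replicate 3. The lower members include Rsad2 at -0.38 ± 0.15 and Mx1 at -0.53 ± 0.23. Immediate early genes (29 measured) had 0.035 and heat shock and endoplasmic reticulum stress genes (36 measured) 0.024. Sex hormone receptors and sex-biased genes (24 measured) had 0.047. Kap, an androgen-dependent protein of the proximal tubule, gave 16681, 23842 and 26245 at 10 weeks and 20666, 22340 and 26462 at 20 weeks (0.076 ± 0.85). The renin-angiotensin and kallikrein-kinin list (15 measured) had 0.19, and 0.018 to 0.351 over the alternatives. Its arrays were apart for 2 lower (13.3%, against 5.67% of all genes) and none higher (7.15% of all genes). Its receptor Agtr1a was lower, at 2693, 3096 and 2272 against 1956, 1827 and 1742 (-0.54 ± 0.15, adjusted p = 0.463). Cytosolic ribosomal proteins (39 measured) had 0.011 and ranged from -0.12 to 0.21.

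The step from 10 to 20 weeks in diabetic rats was measured on arrays that the nondiabetic comparison does not use. Both draw on 1 estimate of the variance. Diabetes began at a later age in the 20-week diabetic rats, so this step is not one of age alone. There 123 of 18625 probe sets (0.66%) passed, 46 higher (0.247%) and 77 lower (0.413%). RNA quality moved with this step: the Gapdh 3' over 5' ratio was 1.44 to 1.5 on 10-week diabetic arrays and 1.60 to 1.75 on 20-week ones, without overlap, and 7 probe sets passed with that ratio as a covariate. Over all probe sets tested, 55.3% had the same sign of the age difference in both, and the correlation across probe sets, which are not independent, was 0.074. Of the 30 genes named for nondiabetic rats, 24 (80.0%) had the same sign in diabetic rats, and 6 passed there, all in the same direction.

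Havcr1 and Spp1 were higher at 20 weeks than at 10 weeks in diabetic rats. Havcr1 went from 175, 210.3 and 144 to 1002, 3097 and 3351 (3.65 ± 0.41, adjusted p = 0.00525), and Spp1 from 4692, 6023 and 4066 to 9797, 22209 and 19625 (1.74 ± 0.26, adjusted p = 0.0157). Tmem86a, Dpt, Col4a5 and Slc8a1 fell. Tmem86a had the smallest adjusted p of them, 0.00229, with 587, 575 and 533 at 10 weeks and 211, 165 and 182 at 20 weeks. Col4a5 fell by 0.48 and Slc8a1 by 0.81 on the log2 scale, close to their differences of -0.40 and -0.66 in nondiabetic rats. Of the lists, 7 of the 30 tubular injury genes were called higher in diabetic rats and 4 of the 24 circadian genes lower (Dbp, Per2, Per3 and Bhlhe40), where 31 of all 10581 genes were called higher and 55 lower.

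No probe set passed the test of whether the age difference itself differed between nondiabetic and diabetic rats. With limma 0 of 18625 (0.0%) were called, the smallest adjusted p was 0.0979, and 1480 (7.95%) had an unadjusted p under 0.05. Tnfrsf21, Slc25a15 and Pter had that smallest value. The mitochondrial ornithine carrier Slc25a15 gave 0.40 ± 0.10 in nondiabetic rats and fell by 0.60 in diabetic rats. Its other 4 probe sets gave 0.15, -0.01, 0.21 and -0.034 in nondiabetic rats, so the nondiabetic value rests on 1 of 5. Pter, a phosphotriesterase-related protein, gave 5183, 4875 and 4773 against 3797, 5589 and 4742 in nondiabetic rats, and fell by 1.30 in diabetic rats, while a dim second probe set gave -0.16 there. Dbp gave -0.17 ± 0.25 in nondiabetic rats and fell by 2.15 in diabetic rats, with an adjusted p for the difference of 0.26.

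**Figure D4:**
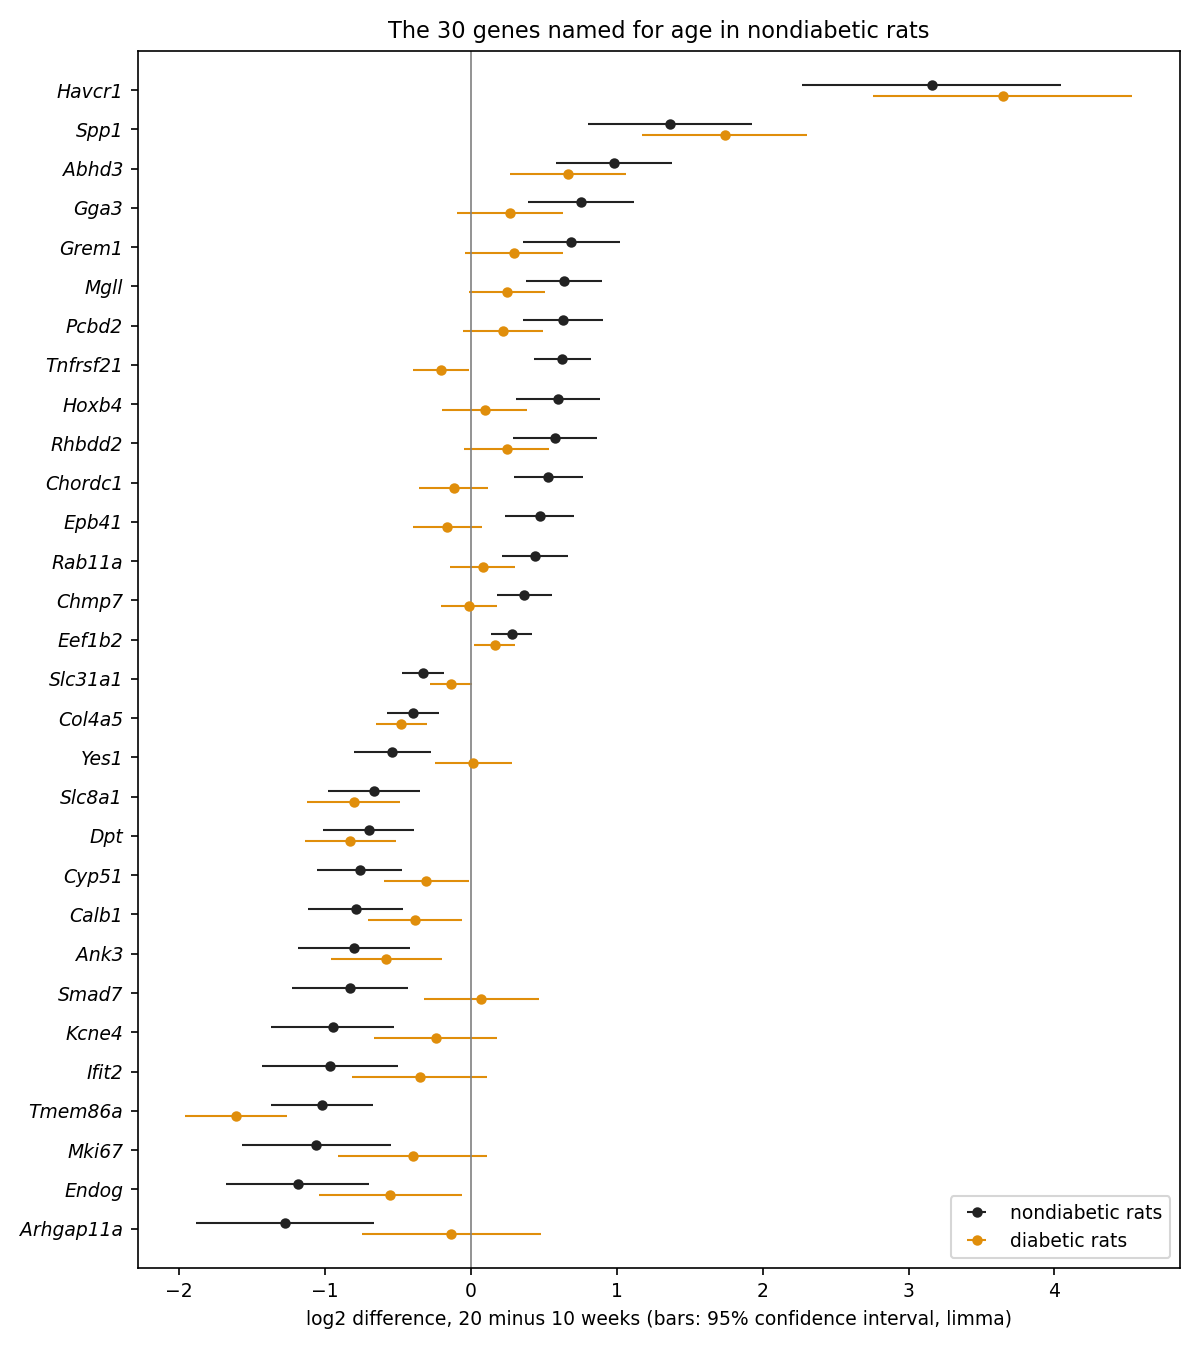
Log2 difference between 20 and 10 weeks of the 30 genes named for nondiabetic rats, in nondiabetic (black) and diabetic (orange) rats, with 95% confidence intervals of the model. The nondiabetic intervals lie away from 0 because the genes were chosen on that difference; 24 of the 30 diabetic values share its sign.

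The mean of the 2 age differences, a comparison added after the counts were seen, combines 6 arrays of each age. It called 112 of 18625 probe sets (0.601%), 42 higher (0.226%) and 70 lower (0.376%) at 20 weeks, and they name 83 genes. A change in diabetic rats alone can pass in it, so a call here is no call for nondiabetic rats. Of the 30 genes named above 12 passed, 4 higher and 8 lower, but the mean contains the nondiabetic difference on which they were chosen, so their passing is no independent support.

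Among those that rose over both treatments, Havcr1 gave 3.40 ± 0.29 (adjusted p = 4.26e-04) and Spp1 1.55 ± 0.18 (adjusted p = 0.00719). Dmbt1, a secreted mucosal scavenger receptor, rose by 1.84 ± 0.30, with nondiabetic signals of 43.2, 56.7 and 39.1 at 10 weeks and 179, 186 and 115 at 20 weeks. Car3, a carbonic anhydrase, rose by 1.68 ± 0.27, with nondiabetic signals of 59.8, 49.8 and 74.9 at 10 weeks and 227, 104 and 121.5 at 20 weeks. Adamts1, a metalloprotease, rose by 0.82 ± 0.15, and its nondiabetic signals were 960.5, 698 and 931.5 against 1648, 1315 and 1103. Medag, Rflnb, Cidea and the copper-binding Cp rose too, by 0.71 to 1.24, although other probe sets of Cp gave 0.49 and 0.35 and one of Rflnb 0.41, none of which passed.

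Matrix genes and distal calcium genes were among those that fell over both treatments, but not all matrix genes fell. By the brightest probe set of each gene, the matrix list had 2 members called lower and 1 called higher. The higher one was Ccn2, at 0.70 ± 0.11 (adjusted p = 0.021), whose nondiabetic arrays overlapped (0.33 ± 0.16). Dpt gave -0.77 ± 0.10 (adjusted p = 0.0111), the proteoglycan Ogn -0.75 ± 0.12 (adjusted p = 0.0201), and Col4a5 -0.44 ± 0.058 (adjusted p = 0.0111). Other probe sets of Ogn did not pass: the brightest gave -0.44 (adjusted p = 0.18) and the others -0.17 and -0.19. The one that passed had nondiabetic signals of 553, 599.8 and 480 at 10 weeks and 299, 390.5 and 323 at 20 weeks. Col6a3 fell by 0.61, while a dim second probe set gave -0.062 (adjusted p = 0.937). Of the 2 probe sets of Col1a2, 1 fell by 0.57 and the other gave -0.82 with an adjusted p of 0.0545. Calb1 (-0.59 ± 0.11, adjusted p = 0.0308) and Slc8a1 (-0.73 ± 0.10, adjusted p = 0.0137) both fell, as did Cyp51 (-0.54 ± 0.095, adjusted p = 0.0281), Asl (-0.36, adjusted p = 0.0335) and Endog (-0.87 ± 0.16, adjusted p = 0.0331). No cell cycle gene of the list passed, and Mki67 gave -0.73 ± 0.17 (adjusted p = 0.0728).

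The spread between replicates was wider in nondiabetic than in diabetic rats. The median SD of log2 signal was 0.192 at 10 weeks and 0.198 at 20 weeks, against 0.173 and 0.179 in the diabetic groups. The highest and lowest of 3 arrays differed over 2-fold for 1947 of the 18625 probe sets at 10 weeks and 2047 at 20 weeks, and for 1361 and 1443 in diabetic rats. These are descriptions, with no test.

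Genes with the widest range were taken among probe sets brighter than the median. At 10 weeks replicate 1 was the low array in each of the 8 widest, several of them transporters and enzymes of the proximal tubule. Dimmer probe sets could go the other way: a probe set of RT1-Bb, a class II histocompatibility gene, gave 2170 in replicate 1 and 105 and 14.7 in the others. Another probe set of RT1-Bb was low in replicate 1, at 62.8 against 997 and 649, so the gene's level is unclear. Dusp15, a phosphatase, gave 1421, 91.7 and 10.1. Slc7a13, an amino acid transporter of the straight part, gave 332 in replicate 1, 11113 in replicate 2 and 19613 in replicate 3, against 10228, 16235 and 17088 at 20 weeks. Slco1a1, an organic anion transporter, gave 44.8, 722.5 and 2827 against 783, 2404 and 1230.4. Hnmt, which methylates histamine, gave 24.9, 1239 and 4239 against 1251, 4251 and 2639, a range of 170-fold at 10 weeks. Mep1b, a brush border metalloprotease, and Tff3, a trefoil peptide, had the same order, with 55.1, 783 and 3295 and with 330.4, 6045 and 18607.

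This low group was not confined to the widest 8. Among the same brighter probe sets, 27 (22 genes) were over 4-fold lower in 10-week replicate 1 than in both other arrays of the group. In all 27 replicate 1 also lay below every 20-week nondiabetic array, in 25 it was the lowest of all 12 arrays, and in 25 replicate 3 lay above replicate 2. They include Gclc, the rate-limiting enzyme of glutathione synthesis, at 1688, 11491 and 20379, and Aadat, an aminotransferase of tryptophan breakdown, at 1433, 8870 and 14977. Convoluted tubule genes were not low on that array: their list stood at 0.019 in replicate 1, relative to the mean of the 6 arrays. The list of collecting duct principal cells stood at 0.20 and that of fibroblasts at 0.26. Which part of the cortex was sampled for this array was not tested. Leaving out replicate 1 of both ages gave 0 calls in nondiabetic rats, with 1153 probe sets at an unadjusted p under 0.05.

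**Figure D5:**
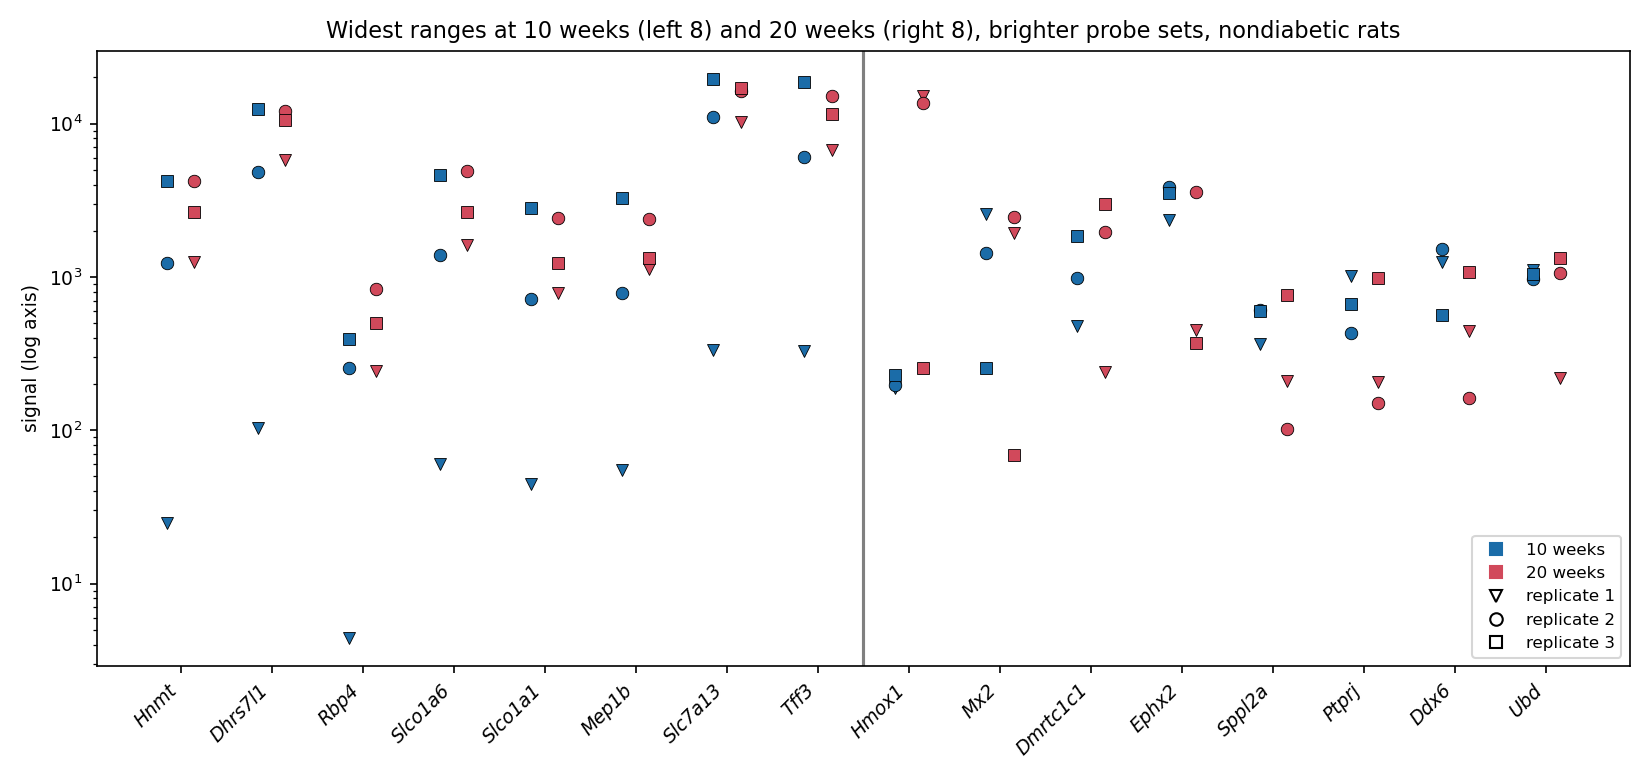
Signal (log axis) of the 8 genes with the widest range among 10-week arrays (left) and the 8 among 20-week arrays (right) of nondiabetic rats, out of probe sets brighter than the median; symbols mark the replicates and colours the ages. Replicate 1 of 10 weeks (blue triangle) is the lowest point for all of the left 8, and Hmox1 is high in 20-week replicates 1 and 2 alone.

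At 20 weeks the widest range among the brighter probe sets was that of Hmox1, the haem-degrading oxygenase induced by stress. It gave 15053 and 13593 in replicates 1 and 2 and 254 in replicate 3, against 188, 197.5 and 229 at 10 weeks. The difference of 4.19 ± 1.38 had an adjusted p of 0.49, and the 20-week diabetic arrays split as well, at 1934, 160 and 5321. Ephx2, an epoxide hydrolase, gave 453, 3601 and 373 at 20 weeks and 2349 to 3882 at 10 weeks. Mx2, an interferon-induced GTPase, gave 1941, 2460 and 69.3 at 20 weeks and 2561, 1421 and 254 at 10 weeks. No array was low or high for all of the 8 genes of that age.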

How the data were processed

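Biotin-labelled cRNA of 12 renal cortex samples was hybridised to 12 single-colour arrays, 3 per group, per the labels. The authors deposited 1 intensity per probe set, a linear signal made with GCOS, per the submitters' processing notes. The version and summary method are not given, nor are detection calls, in the sources used here. The 2% trimmed mean of each array was 500.2, so the authors' scaling sets arrays equal, and differences are relative to other transcripts on an array.

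Of 31099 probe sets 57 controls were removed. A floor of 1 replaced 424 lower signals, log2 was taken, and the 40% with the lowest mean were left out (limit 70.9), which left 18625. Of all noncontrol probe sets 20826 named 1 gene through the array annotation updated with the RefSeq gene table, 436 several and 9780 none; 13974 of those tested named 1 of 10581 genes. limma 3.58.1 (R 4.3.3) fitted 4 group means to all 12 arrays with eBayes and an intensity trend; tests were two-sided, with Benjamini-Hochberg adjustment over all probe sets tested, and differences carry the model's SE. The number of arrays limits the precision. The fit was tested on simulated data.

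The named genes are, in each direction, the called ones with a single symbol and arrays that do not overlap, then those with the smallest p up to 15 (5 in each direction for diabetic rats and for the interaction), 1 probe set per gene, plus leading members of each list and the 8 genes with the widest range per nondiabetic group among probe sets with a mean signal above the median. Genes named outside this rule (tissue markers, segment genes, and members with arrays apart) were chosen after their values were seen. The 37 lists (20 of pathways, 17 of cell types) come from general knowledge. The comparison, the lists and the named genes were chosen with earlier results of these data known. The comparison of age over both treatments, and the promoters shown, were chosen after seeing the data. Of 1336 list entries 1166 matched the array. Pairing by replicate number was checked: the same-numbered nondiabetic arrays correlated at 0.15, -0.15 and -0.1, so the numbers were not taken to pair the ages. Nondiabetic and diabetic arrays of 10 weeks correlated at 0.02, 0.15 and 0.13. Alternatives were other scalings, filters, offsets and variance estimates, array weights, the replicate block, the Gapdh ratio as a covariate, and arrays left out.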

Additional observations from a re-analysis of the deposited data

How the results depend on the processing

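In nondiabetic rats the count of 0 called probe sets held in 21 of 24 alternatives, and the counts with 1 array left out ran from 0 to 9. Without 10-week nondiabetic replicate 3 there were 9 (8 higher, 1 lower), without 20-week nondiabetic replicate 3 also 9 (2 higher, 7 lower), and without 20-week diabetic replicate 1, 2. Havcr1 passed in all 3 of these (adjusted p 0.0386, 0.0425 and 0.00198), Tmem86a in the first 2 (0.0386 and 0.0453), Tnfrsf21 in the first (0.0467) and Spp1 in the third (0.0388). None of the 30 named genes changed sign in any alternative. Of 962 list medians under alternatives, 35 moved by more than the spread between arrays and 50, in 20 lists, had another sign. In diabetic rats the count of 123 became 62 with quantile normalization, 75 with no filter on dim probe sets, 5 with no intensity trend, 239 with array weights and 7 with the Gapdh 3'/5' ratio as a covariate, and ran from 7 to 118 with 1 array left out. The share of higher calls went from 37.4% to 23.4% with median centring (39 higher, 128 lower) and to 54.6% when the contrast's groups were fitted alone (77 higher, 64 lower). The interaction had 3 calls with the Gapdh ratio and 0 to 2 with 1 array left out. Over both treatments the count of 112 became 2 with no intensity trend, 7 with the Gapdh ratio and 22 without both nondiabetic arrays numbered 1, and ran from 7 to 156 with 1 array left out. With the replicate block the counts were 0 in nondiabetic rats, 73 in diabetic rats, 0 in the interaction and 56 over both treatments; whether a number marks a shared litter is not in the labels. Why these counts moved was not tested. Signals near background, such as those of Havcr1 at 10 weeks and of most mitotic genes, limit the sizes of their differences.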

Other observations

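Some probe sets varied between replicates in every group, whatever the age or treatment. The highest and lowest of 3 arrays differed over 4-fold in all 4 groups for 11 of the 18625 probe sets, of which 5 name a gene. Mx2 was low in replicate 3 of each group, at 254 and 69.3 in nondiabetic rats of 10 and 20 weeks and at 110.0 and 62.5 in diabetic rats, against 649.5 to 2561 on the other 8 arrays. RT1-N2, a class I histocompatibility gene, was highest in replicate 3 of each group, at 302, 323, 336 and 311 against 12.9 to 91.6 elsewhere. A probe set of the class II gene RT1-Bb gave 2170 in 10-week nondiabetic replicate 1 and 1570 in 10-week diabetic replicate 1, and 8.1 to 157 on the other 10 arrays. Another probe set of RT1-Bb was the reverse, at 62.8 and 114 on those 2 arrays and 501 to 1194 on the other 10. Dusp15 was high on the same 2 arrays, at 1421 and 1198, and at 662 in 20-week nondiabetic replicate 3, against 8.1 to 138 elsewhere. Snap91 ran from 6.2 to 564. These genes were chosen after their values were seen, and whether same-numbered arrays share a litter was not tested.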
